A study of Mus musculus with 10 samples.

Results

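Proteasome subunits and the chaperones that assemble them were examined in the hippocampus of Dp1Rhr mice, in which the gene for 1 of these chaperones, Psmg1, is carried at 3 copies. Members were taken by gene name, as every measured gene whose symbol starts with Psma to Psmg and a digit, plus Pomp. The rule found 51 of the 19938 genes that could be named and tested. Of these, 49 encode proteasome subunits, regulators or assembly chaperones, and the other two, Psmc3ip, a meiotic recombination factor, and Psme3ip1, matched by name only and were left out of every count below. Psmg1 was the only member within the duplicated interval and the other 48 were at 2 copies.

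RNA from the left and right hippocampus of single male mice aged 16 weeks was hybridised to Affymetrix Mouse Gene ST arrays, with 5 Dp1Rhr mice and 5 control littermates. Dp1Rhr mice carry a duplication that runs on chromosome 16 between Cbr1 and Fam3b, used to model Down syndrome in part. The controls, labelled WT, came from the cross of the Dp5Yah and Dp1Rhr lines, and all mice were on a C57BL/6N background per the labels, whereas the methods of the study name C57BL/6J for lines of this kind. Values are log2 signals in which a difference of 1 is a doubling, and signals of different genes cannot be set against each other. The tissue is bulk, so fewer cells of a type and less RNA per cell cannot be told apart.

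The proteasome is the protease that degrades ubiquitin-tagged proteins. Its core particle is a barrel of outer rings of alpha subunits and inner rings of beta subunits, and it is capped by a regulatory particle whose base of ATPases unfolds substrates and whose lid removes ubiquitin. The core does not form unaided: Psmg1 and Psmg2 act as a pair in building the alpha ring, Psmg3 and Psmg4 act as a second pair, and Pomp guides the beta subunits and the joining of half-barrels. In neurons the proteasome takes part in synaptic protein turnover.

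Array medians lay between 6.77 and 6.83. The mean over 10 markers of hippocampal neurons was 10.57 to 10.60 in Dp1Rhr and 10.55 to 10.63 in control, with 0 markers past the threshold, an adjusted p of 0.05 in limma over all genes. Markers of choroid plexus, an epithelium next to the hippocampus, averaged 8.21 to 8.97 in Dp1Rhr and 6.93 to 8.62 in control. All 16 were above 0, with a median log2 fold change of 0.84. With an unadjusted p under 0.05, 12 were higher, against 8.55% of all genes, and 0 passed. The lowest were control replicates 2 and 3, at 6.93 and 7.11. The 13 microglial markers averaged 9.024 to 9.11 in Dp1Rhr and 8.92 to 9.016 in control, so that their array means did not overlap. Of these markers 10 were above 0 and 3 below, Tmem119 at -0.07, Ctss at -0.05 and Csf1r at -0.04. At an unadjusted p under 0.05 there were 5 higher (C1qa, C1qb, C1qc, Tyrobp and Laptm5) and 0 lower, against 8.55% and 6.44% of all genes, and 0 passed. The 9 endothelial markers averaged 9.23 to 9.33 in Dp1Rhr and 9.16 to 9.38 in control, and 0 passed. Of the blood markers 2 were measured, averaging 7.31 to 7.63 in Dp1Rhr and 7.02 to 7.28 in control. Of them Alas2 passed, with a log2 fold change of 0.67, and Slc4a1 stood at 0.01. The choroid plexus score was fitted as a covariate, with values given below, and the part of the other lists in the results was not tested. For the proteasome genes several arrays stood apart. Dp1Rhr replicate 3 was the lowest Dp1Rhr array for 31 of the 48 members at 2 copies (64.6%), against 26.8% of all genes, and Dp1Rhr replicate 1 the highest for 18 (37.5%), against 16.9%. Among controls, replicate 2 was the lowest for 16 (33.3%), against 18.6% of all genes, and replicate 3 the highest for 18 (37.5%), against 24.2%.

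Psmg1 rose in Dp1Rhr. Its signals were 8.996, 8.88, 8.54, 9.07 and 9.05 in Dp1Rhr and 8.15, 8.43, 8.54, 8.32 and 8.31 in control. The groups did not overlap, but by a margin of only 0.0076, between Dp1Rhr replicate 3 and control replicate 3. The change was 1.47-fold, a log2 fold change of 0.56 ± 0.10 (SE, n = 5 per group, limma adjusted p = 0.0337), with a 95% confidence interval of 0.34 to 0.77. A gain in proportion to gene copies, 3 over 2, would be 0.585 on this scale. Psmg1 lies at chr16:95979933-95990960 (GRCm38) and had the highest log2 fold change of the 31 genes measured in the interval. Of these 31 genes 14 rose, and their median was 0.21. Vps26c at 0.51 ± 0.07 (SE) and Get1 at 0.50 ± 0.04 (SE) lay within the confidence interval of Psmg1. The call of Psmg1 was lost without Dp1Rhr replicate 1, 2 or 4 (adjusted p = 0.116, 0.0935 and 0.101) and without control replicate 1, 2, 4 or 5 (adjusted p = 0.0522, 0.0723, 0.0526 and 0.0821). Without Dp1Rhr replicate 3 the log2 fold change was 0.65 (adjusted p = 0.00876).

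Of the 49 proteasome genes, Psmg1 alone passed the threshold, so that 1 rose and 0 fell, where 0.802% of all genes passed, 0.627% higher and 0.176% lower. Psmg1 was also the only one of the 49 whose groups did not overlap, against 1.82% of all genes higher and 1.70% lower. With a choroid plexus score added as a covariate, or without control replicates 2 and 3 together, 0 passed, and Psmg1 stood at 0.64 (adjusted p = 0.110) and 0.65 (adjusted p = 0.0891).

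Psmg2, the partner with which Psmg1 forms a heterodimer, is on another chromosome and has 2 copies. It read 8.96, 8.81, 8.74, 8.89 and 8.81 in Dp1Rhr, against 8.54, 8.73, 8.89, 8.57 and 8.71 in control. The ranges overlapped, and the log2 fold change of 0.15 ± 0.06 (SE) did not pass (adjusted p = 0.285). Taken within each array as the log2 ratio of Psmg1 to Psmg2, with the control mean set to 0, Dp1Rhr arrays lay between 0.14 and 0.59 and control arrays between -0.06 and 0.09. The change of Psmg1 thus exceeded that of Psmg2 by 0.41 (exact permutation test over arrays, two-sided, p = 0.00794, which is the lowest value 252 assignments can give). This test was chosen after the values were seen. Groups that do not overlap always give this lowest value, so the p adds nothing to the ranges. Control replicate 3 was the highest control for both genes and Dp1Rhr replicate 3 the lowest Dp1Rhr array for both.

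Pomp, the chaperone of beta ring assembly, had the highest log2 fold change among the members at 2 copies. Its signals were 9.14, 9.11, 8.88, 9.19 and 8.99 in Dp1Rhr and 8.83, 8.89, 8.99, 8.87 and 8.89 in control. Dp1Rhr replicates 1, 2 and 4 were above all controls, replicates 3 and 5 lay below control replicate 3, and the log2 fold change was 0.17 ± 0.06 (SE, adjusted p = 0.184). Without Dp1Rhr replicate 3 the change of Pomp was 0.21 (adjusted p = 0.0564).

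The second chaperone pair lay close to 0. Psmg3 read 6.30, 6.25, 6.34, 6.33 and 6.32 in Dp1Rhr and 6.34, 6.40, 6.21, 6.30 and 6.33 in control, a difference of -0.01 ± 0.04 (SE, adjusted p = 0.947). Psmg4 read 7.42, 7.41, 7.37, 7.40 and 7.46 in Dp1Rhr and 7.35, 7.30, 7.45, 7.40 and 7.32 in control, with 0.05 ± 0.04 (SE, adjusted p = 0.608). Both genes overlapped between the groups. Psmg3 was dim, below the 40th percentile of mean signal over all genes.

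**Figure D1:**
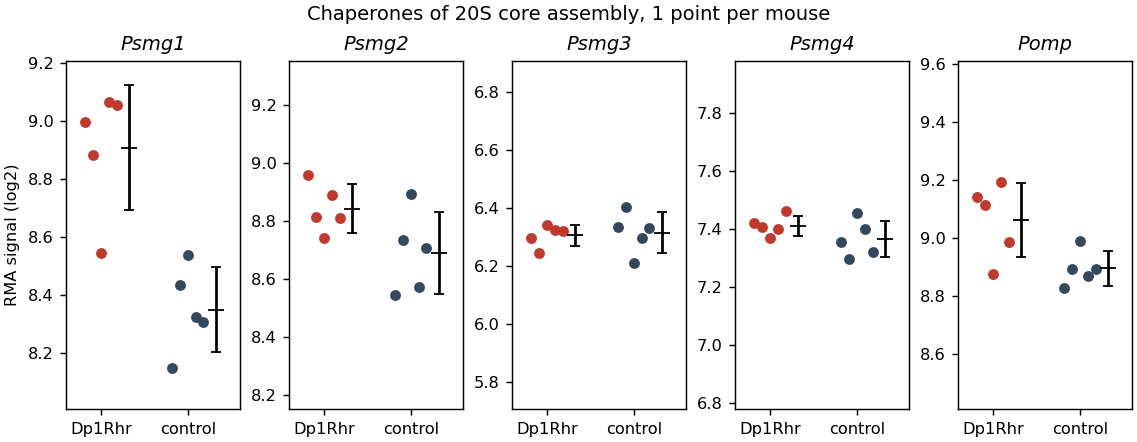
Log2 signal of the 5 chaperones of core assembly in each mouse, Dp1Rhr in red and control in dark blue, with the mean and SD in black; each panel spans 1.2 log2 units. Psmg1 separates the groups by a margin of 0.0076, and the other 4 genes overlap.

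The sequence upstream of the start site is shown for Psmg1, as the member with the extra copy, for Pomp, as the highest member at 2 copies, and for Psmb6, a catalytic subunit with a letter match to the core of the antioxidant response element discussed next. Each is the run of 250 bases before the start given by its RefSeq entry (GRCm38.p6), 5′ to 3′ on the gene's strand, at chr16:95990961-95991210 (minus strand), chr5:147860378-147860627 (plus strand) and chr11:70525107-70525356 (plus strand). For Psmb6 this start lies inside the gene as annotated, which begins at chr11:70525324, and the marked match lies after that position. Capitals mark the ETS core CCGGAAG and the response element core TGACNNNGC on either strand.
Psmg1: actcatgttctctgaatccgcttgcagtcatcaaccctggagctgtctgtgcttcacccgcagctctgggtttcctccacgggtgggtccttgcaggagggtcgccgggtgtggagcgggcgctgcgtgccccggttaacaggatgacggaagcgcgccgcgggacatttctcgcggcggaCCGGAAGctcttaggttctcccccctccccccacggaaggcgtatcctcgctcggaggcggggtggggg
Pomp: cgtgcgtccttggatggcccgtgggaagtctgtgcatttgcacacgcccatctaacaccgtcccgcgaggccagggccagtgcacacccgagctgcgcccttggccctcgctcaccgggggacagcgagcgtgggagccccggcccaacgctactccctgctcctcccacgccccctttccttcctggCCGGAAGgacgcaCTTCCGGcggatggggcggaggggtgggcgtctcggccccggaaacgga
Psmb6: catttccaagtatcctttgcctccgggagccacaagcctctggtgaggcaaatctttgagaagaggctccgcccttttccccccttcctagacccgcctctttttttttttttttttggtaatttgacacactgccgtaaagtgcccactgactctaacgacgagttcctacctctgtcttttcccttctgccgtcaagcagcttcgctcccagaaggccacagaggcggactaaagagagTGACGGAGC

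Of the 49 genes 41 had such an entry. Several entries were present for 3 of the 41, and a match in any of them counted. The start of an entry need not be the first base of the gene. For Psmd2 the entry begins at chr16:20651402, inside the gene at chr16:20651122-20663414. The core of the antioxidant response element, through which Nfe2l1 (NRF1) and Nfe2l2 (NRF2) act on proteasome genes, was found before 5 of the 41 (12.2%), Psmb5, Psmb6, Psmc6, Psmd9 and Psmd12, and before 11.5% of all 27025 genes with an entry. CCAAT, the NF-Y box, was found before 14 members (34.1%, against 37.5% of all genes), 5 of them among the 7 alpha subunits. The ETS core, searched for after the sequences were seen, was found before 13 members (31.7%, against 7.83% of all genes). They were Psmg1, Pomp, Psma6, Psmd2, Psmd4, Psmd6, Psmd11, Psmd12, Psme3, Psme4 and 3 of the 5 ATPases with an entry. Psmg1 and Pomp, whose sequences are shown, are in this count, and all genes with an entry were taken whatever their signal. Whether the ETS core is a trait of the members was not tested. The 12 carriers at 2 copies had log2 fold changes from -0.07 for Psme4 to 0.17 for Pomp. Their median was 0.05, against 0.04 for the 28 without the ETS core. For the response element the median was 0.01 in the 5 carriers, against 0.04 in the 35 without it. For CCAAT it was 0.04 both in the 14 carriers and in the 26 without it. All motifs were sought on both strands, none contains another, and a match is a run of letters only.

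The 7 alpha subunits, which form the outer rings and the gate of the core, were measured with log2 fold changes between -0.01 for Psma3 and 0.11 for Psma6, and 0 passed. Their median was 0.05. Psma5 had the smallest p, with signals of 8.92, 8.94, 8.88, 8.94 and 8.90 in Dp1Rhr and 8.89, 8.68, 8.90, 8.74 and 8.89 in control. Its control replicates 2 and 4 were low, the groups overlapped, and the log2 fold change was 0.10 ± 0.04 (SE, adjusted p = 0.338). Psma6 read 10.97, 10.97, 10.81, 10.89 and 10.86 in Dp1Rhr and 10.95, 10.55, 10.83, 10.79 and 10.83 in control, where control replicate 2 was the low array (adjusted p = 0.490). Without that array Psma5 stood at 0.06 and Psma6 at 0.05. Psma1 at 0.05, Psma2 at 0.03, Psma4 at 0.04 and Psma7 at 0.05 also did not pass. Per array, the mean over the alpha subunits was 9.94 to 9.996 in Dp1Rhr and 9.84 to 10.01 in control.

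The 7 constitutive beta subunits had a median of 0.07, and 0 passed. The catalytic subunits were among them: Psmb5, with chymotrypsin-like activity, at -0.04 ± 0.04 (SE), Psmb6, caspase-like, at 0.07 ± 0.07 (SE), and Psmb7, trypsin-like, at -0.01 ± 0.04 (SE). Psmb4, a structural subunit, had the smallest p of the ring, with 11.38, 11.35, 11.24, 11.41 and 11.34 in Dp1Rhr and 11.28, 10.93, 11.31, 11.15 and 11.29 in control. The low value of control replicate 2 stood out, and the log2 fold change of 0.15 ± 0.07 (SE) did not pass (adjusted p = 0.308). Without that array it was 0.09. Psmb1 read 10.46, 10.38, 10.31, 10.37 and 10.33 in Dp1Rhr and 10.29, 10.22, 10.38, 10.23 and 10.28 in control (log2 fold change 0.09 ± 0.04 SE, adjusted p = 0.316). Psmb2 stood at 0.10 and Psmb3 at -0.01. The tissue-restricted subunits Psma8 of testis and Psmb11 of thymus were dim, below the 40th percentile of signal, with log2 fold changes of 0.02 and -0.02. Psma8 read 5.54, 5.60, 5.45, 5.56 and 5.57 in Dp1Rhr and 5.51, 5.55, 5.49, 5.55 and 5.50 in control. Psmb11 read 5.86, 5.86, 5.83, 5.93 and 5.95 in Dp1Rhr and 5.86, 5.95, 5.87, 5.92 and 5.96 in control. Both overlapped.

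The immunoproteasome subunits replace the catalytic beta subunits in cells exposed to interferon, and none of the 3 passed. Psmb8 read 5.90, 5.85, 5.92, 5.88 and 5.77 in Dp1Rhr and 5.89, 5.81, 5.78, 5.90 and 5.75 in control, a difference of 0.04 ± 0.04 (SE, adjusted p = 0.739) in a gene at the 24.8th percentile of signal. Psmb9 read 7.59, 7.60, 7.73, 7.71 and 7.63 in Dp1Rhr and 7.60, 7.76, 7.58, 7.44 and 7.50 in control, where control replicate 2 was the highest of all 10 arrays. Its log2 fold change was 0.08 ± 0.05 (SE, adjusted p = 0.576). Psmb10 read 8.97, 8.95, 9.15, 9.04 and 9.09 in Dp1Rhr and 9.16, 9.20, 9.08, 9.04 and 8.96 in control, with -0.05 ± 0.05 (SE, adjusted p = 0.724). The markers of microglia, which express the immunoproteasome, averaged 9.024 to 9.11 in Dp1Rhr and 8.92 to 9.016 in control. The lowest Dp1Rhr mean lay just above the highest control, and 3 of the 13 markers were below 0. The part of microglia in these values was not tested. The directions of the 3 subunits were mixed. The value of Psmb9 depended on single controls, at 0.12 without control replicate 2 (adjusted p = 0.263) and 0.04 without control replicate 4 (adjusted p = 0.794), and was 0.14 without control replicates 2 and 3 together (adjusted p = 0.256).

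Psme1 and Psme2 encode the interferon-inducible PA28 activator, which opens the core for peptide production. Psme1 read 9.09 to 9.21 in Dp1Rhr and 9.05 to 9.23 in control (log2 fold change 0.04 ± 0.04 SE, adjusted p = 0.719). Psme2 read 8.97 to 9.23 in Dp1Rhr and 9.001 to 9.17 in control (0.04 ± 0.05 SE, adjusted p = 0.791), and a probe set shared with its near-copy Psme2b was not used. Of 7 measured genes of antigen processing, which takes up the peptides, 0 passed. B2m, the light chain of MHC class I, read 12.31, 12.32, 12.26, 12.35 and 12.15 in Dp1Rhr and 12.11, 12.05, 12.18, 12.11 and 12.07 in control. All Dp1Rhr arrays but replicate 5 were above the controls, and the log2 fold change was 0.18 ± 0.04 (SE, adjusted p = 0.0788). Tap1, the peptide transporter, had 0.09 ± 0.05 (SE, adjusted p = 0.410).

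**Figure D2:**
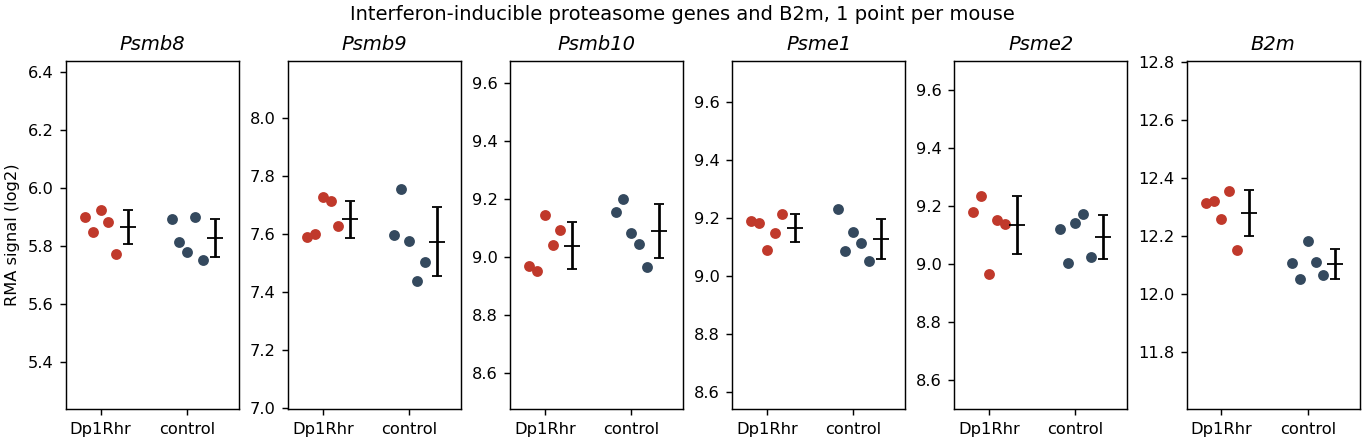
Log2 signal of the immunoproteasome subunits, the PA28 genes and B2m in each mouse, Dp1Rhr in red and control in dark blue, with the mean and SD in black; each panel spans 1.2 log2 units. The groups overlap for all 6 genes, and B2m has the widest distance between group means at 0.18.

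The 6 ATPases of the base had log2 fold changes from 0.01 for Psmc6 to 0.10 for Psmc2, with a median of 0.05, and 0 passed. Psmc2 read 9.17, 9.10, 8.87, 9.16 and 9.02 in Dp1Rhr and 8.97, 8.95, 9.10, 8.85 and 8.96 in control (adjusted p = 0.499). Psmc1 read 10.01, 9.94, 9.63, 9.90 and 9.87 in Dp1Rhr and 9.86, 9.66, 9.85, 9.75 and 9.82 in control (0.08 ± 0.06 SE, adjusted p = 0.633). In both, Dp1Rhr replicate 3 was the low array of its group. The value of Psmc1 was 0.14 without that array and 0.05 without Dp1Rhr replicate 1 or without control replicate 2. The mean over the ATPases was 9.45 in that array and 9.601 to 9.68 in the other 4 Dp1Rhr arrays, against 9.49 to 9.604 in control.

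The 11 non-ATPase subunits had a median of 0.02, and 0 passed. Psmd2, a large scaffold subunit of the base, also lies on chromosome 16, at chr16:20651122-20663414 (GRCm38), outside the duplication and so at 2 copies. It read 11.34, 11.30, 11.13, 11.33 and 11.25 in Dp1Rhr and 11.14, 11.14, 11.23, 11.13 and 11.19 in control. Replicate 3 was the lowest Dp1Rhr array and the highest control, and the log2 fold change of 0.10 ± 0.04 (SE) did not pass (adjusted p = 0.259). Psmd1, the other large scaffold subunit, read 11.47, 11.45, 11.41, 11.44 and 11.46 in Dp1Rhr and 11.43, 11.37, 11.44, 11.34 and 11.37 in control (0.06 ± 0.03 SE, adjusted p = 0.390). The deubiquitinase Psmd14 stood at 0.04 ± 0.03 (SE) and the ubiquitin receptor Psmd4 at 0.02 ± 0.05 (SE). The other 7, all lid subunits, lay between -0.01 for Psmd11 and 0.11 for Psmd6, which stood at 0.05 without control replicate 2.

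The base has chaperones of its own. Psmd10, known as gankyrin, read 9.21, 9.29, 9.18, 9.35 and 9.23 in Dp1Rhr and 9.05, 9.08, 9.33, 9.23 and 9.06 in control (0.10 ± 0.06 SE, adjusted p = 0.442). Psmd5 read 9.74, 9.71, 9.67, 9.85 and 9.77 in Dp1Rhr and 9.74, 9.78, 9.82, 9.88 and 9.73 in control (-0.04 ± 0.04 SE, adjusted p = 0.694), and Psmd9 stood at -0.04 ± 0.03 (SE). Among the remaining regulators, Psmf1, the PI31 protein that binds the core, read 9.996, 9.99, 9.88, 9.97 and 9.85 in Dp1Rhr and 9.79, 9.85, 9.86, 9.76 and 9.89 in control. Its groups overlapped through Dp1Rhr replicates 3 and 5, and the log2 fold change was 0.11 ± 0.04 (SE, adjusted p = 0.202). Psme4, the PA200 activator, read 9.27, 9.41, 9.29, 9.19 and 9.34 in Dp1Rhr and 9.46, 9.26, 9.41, 9.21 and 9.51 in control. Its difference of -0.07 ± 0.06 (SE, adjusted p = 0.665) was the lowest of all members, and it ranged from -0.11 without control replicate 4 to -0.04 without control replicate 5 or Dp1Rhr replicate 4. Psme3, the nuclear PA28 form, stood at 0.01 ± 0.03 (SE).

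Across the 48 members at 2 copies the median log2 fold change was 0.04, against 0.00 over all genes, and 36 lay above 0, against 49.9% of all genes. At an unadjusted p under 0.05 there were 6 higher (Pomp, Psmf1, Psmd2, Psmg2, Psmb4 and Psmb1) and 0 lower, against 8.55% and 6.44% of all genes (15.0% in either direction). The count of 6 became 2 when Dp1Rhr replicate 1, Dp1Rhr replicate 4 or control replicate 4 was left out. In these fits 6.68%, 7.16% and 8.39% of all genes were higher. Removing Dp1Rhr replicate 2 gave 3, against 6.94% of all genes. The count was 10 with Dp1Rhr replicate 3 removed (10.3% of all genes) and 11 with control replicate 3 removed (9.03%). In each of these fits 0 of the 48 were lower, against 4.51% to 7.41% of all genes. Most members are bright, so the share over all genes includes many dimmer ones. With genes under the 40th percentile of mean signal left out, 5 of 44 members were higher and 0 lower, against 10.7% and 8.84% of the genes kept. All 48 overlapped between the groups, where 3.52% of all genes did not. Their 95% confidence intervals had a median half-width of 0.09, and the highest upper limit was 0.30, for Psmb4. All 48 intervals therefore lay below 0.585, as did those of 99.2% of all genes. With the choroid plexus score in the model, 27 of the 48 lay above 0.

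**Figure D3:**
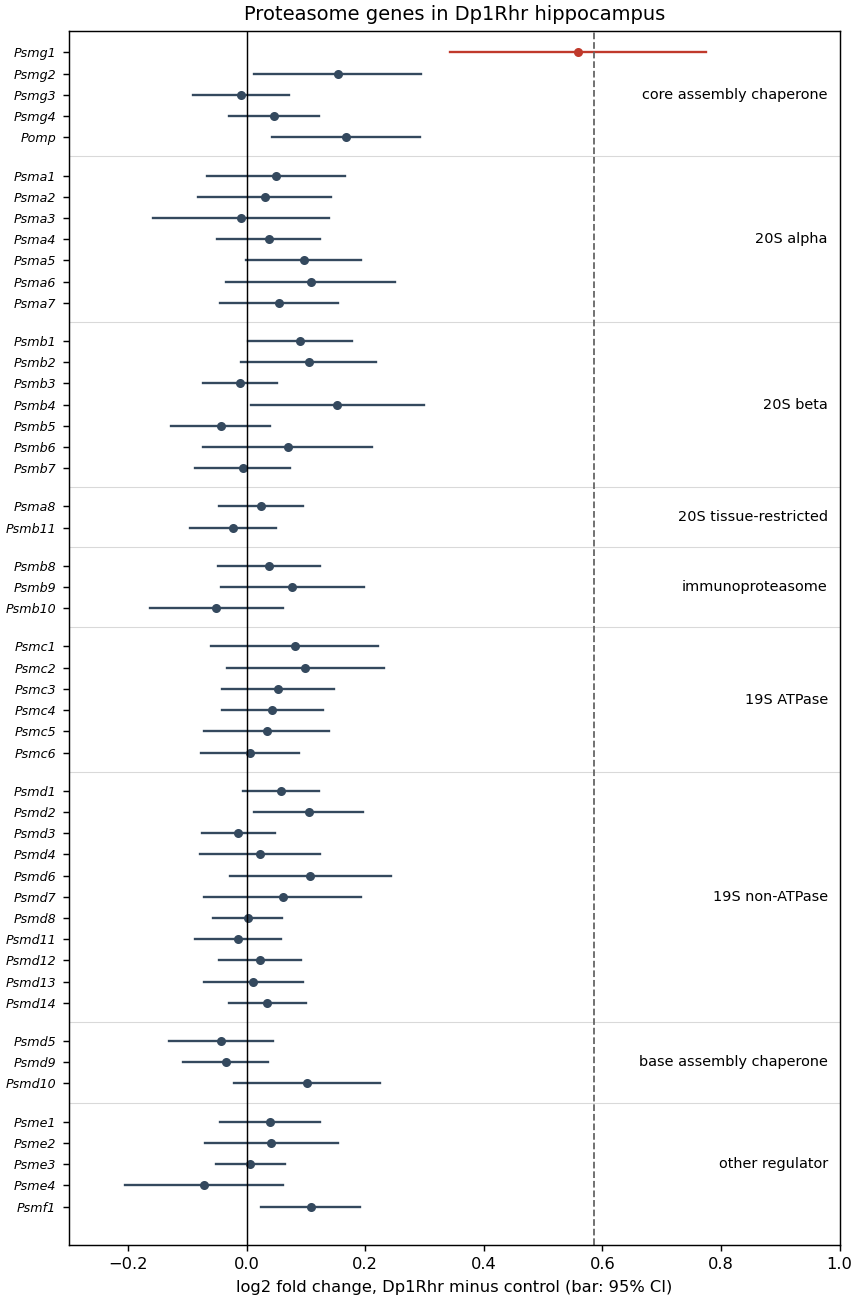
Change of the 49 proteasome genes in Dp1Rhr over control (log2, 5 mice each) by role (20S marks the core particle and 19S the regulatory particle), with 95% confidence intervals; red marks the gene past an adjusted p of 0.05 and the dashed line is 0.585, the log2 of 3 over 2. The interval of Psmg1, 0.34 to 0.77, includes the dashed line, and the 48 others end at 0.30 or lower.

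Levels of the members also differed between arrays of a group. The mean over the 48 genes was 9.62, 9.60, 9.54, 9.60 and 9.59 in Dp1Rhr and 9.57, 9.51, 9.59, 9.53 and 9.54 in control. Dp1Rhr replicate 3 was the low array of its group, and control replicate 3 the high one. Relative to this mean and to the control average, Psmg1 stood at 0.58, 0.48, 0.20, 0.66 and 0.66 in Dp1Rhr and at -0.23, 0.12, 0.15, -0.01 and -0.03 in control. All Dp1Rhr arrays remained above all controls, with replicate 3 again the lowest. Without Dp1Rhr replicate 3 the median over the 48 was 0.06, and 0 passed the threshold. At an unadjusted p under 0.05 there were 10 higher and 0 lower, against 10.3% and 7.41% of all genes.

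**Figure D4:**
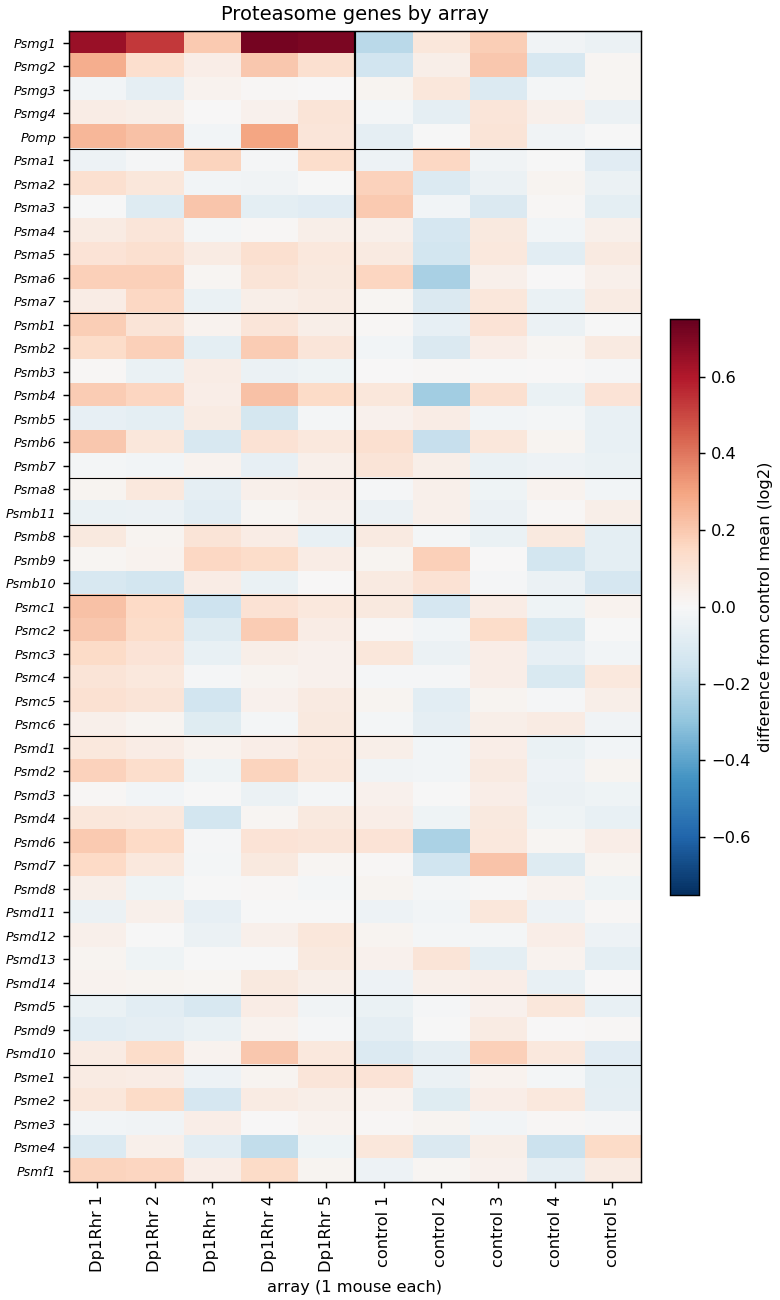
Difference of each proteasome gene from its control mean (log2, colour) in each of the 10 arrays, with Dp1Rhr left of the vertical line and roles separated by horizontal lines. Psmg1 in the top row is between 0.19 and 0.72 in Dp1Rhr, and replicate 3 is the lowest Dp1Rhr array for 31 of the 48 other genes.

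Proteins that work with the proteasome were taken from lists outside the name rule. Of 13 measured partners, such as shuttle factors and bound deubiquitinases, 0 passed. Sem1, a small lid subunit not named after the family, read 8.55, 8.62, 8.53, 8.55 and 8.62 in Dp1Rhr and 8.46, 8.35, 8.51, 8.46 and 8.43 in control. The groups did not overlap, and the log2 fold change of 0.13 ± 0.03 (SE) missed the threshold (adjusted p = 0.0941). The deubiquitinase Usp14 stood at -0.02 ± 0.03 (SE). Of 12 regulators of proteasome gene expression 0 passed, and 8 lay below 0. Nfe2l1, which raises proteasome genes when the protease is impaired, stood at -0.02 ± 0.04 (SE, adjusted p = 0.854). Nfe2l2, the oxidative stress factor, read 9.93, 10.02, 9.91, 9.98 and 9.66 in Dp1Rhr and 9.49, 9.20, 9.53, 9.78 and 9.46 in control. Only Dp1Rhr replicate 5 fell within the control range, and the log2 fold change was 0.41 ± 0.10 (SE, adjusted p = 0.0776). Foxo4, a forkhead factor, read 7.28, 7.27, 7.22, 7.30 and 7.27 in Dp1Rhr and 7.35, 7.33, 7.41, 7.42 and 7.42 in control. Its groups did not overlap, and the log2 fold change was -0.12 ± 0.03 (SE, adjusted p = 0.0818).

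For 5 members more than 1 probe set was available, Psma3, Psma5, Psmb3, Psmc1 and Psmd2, and 0 of their probe sets passed. The probe sets of Psma5 gave 0.10 and 0.12, those of Psmc1 0.08 each and those of Psmd2 0.10 and 0.07. Those of Psma3 and Psmb3 lay between -0.01 and 0.01. Psmg1 had 1 probe set.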

How the data were processed

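The submitters' processing notes name RMA, limma and mm10. RMA corrects background, quantile normalizes arrays and summarises probes. The authors deposited log2 values for 35556 probe sets, and a shift of all genes at once cannot be seen in them. Which arrays entered 1 RMA run, and its version: not given in the sources used here. In the platform annotation 1 gene symbol was given for 21789 probe sets, several for 1621 and no entry for 12146. The brightest probe set by mean over the 10 arrays stood for each of 19938 genes. The comparison of Dp1Rhr with control used limma 3.58.1 (R 4.3.3, lmFit, eBayes, two-sided, Benjamini-Hochberg over all genes, adjusted p of 0.05). It was checked on simulated data with noise drawn independently for each gene, which hold no shifts shared by genes of an array. The study used FCROS, which calls a near-fixed share of genes, so it was an alternative (trim 0.25, f-value limits 0.025 and 0.975). The other alternatives changed arrays, normalization, filter, probe sets, variance model, weights or covariate. Arrays were 1 per mouse, and their number limits the precision. The choroid plexus score was the mean z-score over its markers. Values by array were given for the core chaperones, the immunoproteasome and the 2 members of other roles with the smallest p, and a few more were named after their values were seen. The members and lists were chosen with earlier results of these data known. Means over members and motif shares carry no test.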

Additional observations from a re-analysis of the deposited data

Results flagged for a closer look

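In 1 of the 98 groups of 5 arrays examined (49 genes, 2 groups), an array lay far from the other 4, where chance flags about 1 in 20. Psmd6, a lid subunit, read 9.78 in control replicate 2, and the next lowest control was at 10.03. The gap was 0.739 of the group's range. Without this array the log2 fold change of Psmd6 was 0.05 (adjusted p = 0.705), against 0.11 with it (adjusted p = 0.469), and Psma6 and Psmb4 moved likewise, to 0.05 and 0.09.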

How the results depend on the processing

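The main counts were 1 proteasome gene higher and 0 lower, and 125 and 35 of all genes. With the replicate number as a block, 0 proteasome genes and 4 of all genes were higher and 0 lower, and Psmg1 stood at 0.56 (adjusted p = 0.136). Same-numbered arrays correlated at -0.34 to 0.12 after group means were removed, and 1 of 5 Dp1Rhr arrays correlated best with the control of its own number, so the numbers were not taken as pairs. Without control replicates 2 and 3 together, 0 proteasome genes were higher, 5 of all genes were higher and 0 lower, and Psmg1 stood at 0.65. With the choroid plexus score the values were 0, 6 higher, 1 lower and 0.64. FCROS, which calls a near-fixed share of genes, called 2 of the 49 proteasome genes higher, Psmg1 and Pomp. Of all 19938 genes it called 678 higher and 397 lower, so its count of members is no second result for Pomp. The 6 members at 2 copies with an unadjusted p under 0.05 became 1 with the block and 11 with array weights. In these fits 7.45% and 10.1% of all genes were higher. Array weights gave 213 and 67 of all genes, centring on medians 17 lower, and every probe set on its own 21 lower. With 1 array left out, 0 to 1 proteasome genes were higher and 0 lower, all genes gave 5 to 217 higher and 0 to 67 lower, the median of members at 2 copies was 0.03 to 0.06, and Psmg1 was 0.51 to 0.65 (adjusted p = 0.00876 to 0.116). The excess of Psmg1 over Psmg2 stayed between 0.36 and 0.47. Fewer arrays give less precision; other causes of these shifts were not tested.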

Other observations

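Genes that supply and edit ubiquitin, upstream of the proteasome, had 8 measured members, of which 0 passed in limma and 0 had an unadjusted p under 0.05. Their log2 fold changes lay between -0.07 for Uba6, an activating enzyme, and 0.10 for Ufd1, a cofactor of the segregase Vcp. Their mean per array was 10.25 to 10.37 in Dp1Rhr and 10.27 to 10.39 in control.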
